A study of Mus musculus with 12 samples.

Results

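Tumours of mice given cisplatin alone were set directly against tumours of mice given brivanib alone, gene by gene. This comparison rests on 6 of the 12 labelled libraries of the study, 3 cisplatin libraries (numbered 1, 2 and 3) and 3 brivanib libraries (2, 3 and 5), chosen by their treatment label. All were flank tumours of Lewis lung carcinoma (LLC), a mouse lung cancer line that can be passed between animals of its C57BL/6 strain, in C57BL/6 females of 6 to 8 weeks. For each flank, 3 M cells (M, 1e6) were given in Matrigel, which made 10 to 12 tumours from the 6 mice of a group, so tumours of a group may share a mouse. Injections into the peritoneum, 100 µL each, began once total tumour volume had reached 100 mm3 and were given 2 times a week for 4 weeks. The other groups, vehicle and the combination of both drugs, with 3 libraries each, entered the fit to estimate the spread and are given as reference levels. The sources used here give no doses. No label says whether the tumours sequenced stem from separate mice, so the p-values below speak only of the spread among these samples, which may be technical.

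Cisplatin is a platinum drug that binds DNA and cross-links its strands, which blocks replication and calls up repair and cell cycle checkpoints. It is also known to harm bone marrow and kidney. Brivanib blocks the kinase activity of receptors for vascular endothelial growth factor (VEGF) and fibroblast growth factor (FGF), which endothelial cells need to form new vessels and which fibroblasts and tumour cells can also use. A tumour piece holds cancer cells together with fibroblasts, vessel cells, blood and immune cells, and in RNA from whole tissue fewer cells of a type and less RNA per cell cannot be told apart.

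Levels are FPKM, fragments relative to transcript length and to a library total, summed over the transcripts of a gene. Libraries held 17.161 to 30.943 M fragments. Brivanib 5 stood apart: ribosomal-like features took 38.17% of its fragments, against 0.314% to 0.69% in the other 11 libraries. Small RNAs without a poly(A) tail were also high there, with Rn7sk, the 7SK RNA, at 584 FPKM against 0.405 to 1.12 FPKM in the other brivanib libraries and 8.68 to 15.2 FPKM with cisplatin. Replication histones, whose messages also lack such a tail, had a mean log2(FPKM + 1) level of 3.67 in brivanib 5 and of 1.08 to 1.74 in the others. The labels name the tumour cells as LLC, and of 18 lung and carcinoma epithelial markers only Napsa and Cdh1 reached the level needed for a test. Cdh1, the epithelial cadherin, lay at 1.94 to 2.26 FPKM with cisplatin and 1.62 to 3.23 FPKM with brivanib.

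In all, 269 of 14246 genes tested differed (1.89%; limma on log2(FPKM + 1), adjusted p under 0.05), 168 higher in brivanib (1.18%) and 101 higher in cisplatin (0.709%). The genes higher in brivanib differed more, with a median of -1.53 on the log2 scale (cisplatin minus brivanib) against 0.66 for those higher in cisplatin. Of the 158 called genes that differed at least 2-fold in FPKM + 1, 133 were higher in brivanib and 25 in cisplatin. The median over all genes tested was 0.07. The shares of 1.18% and 0.709% are the background for the counts called in each list below. Of the 269 genes, 14 have provisional names and are not named here. The 3 cisplatin values lay wholly apart from the 3 brivanib values in each of the 269 genes, and in 20.6% of all genes tested. At an unadjusted p under 0.05 there were 2499 genes.

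The number of genes called rested on single libraries. It was 11 without cisplatin 3, 48 without brivanib 5, 68 without cisplatin 2 and 108 without brivanib 2. It was also lower without vehicle 2, 3 or 5 (123, 145 and 137) or combination 2 (159), which enter only through the estimate of the spread. With only the 6 cisplatin and brivanib libraries in the fit, 11 genes were called. Of the 66 called genes named below, 62 lost the call without cisplatin 3, and Cd209f, Cd209g, Pi16 and Lbp kept it under every removal of 1 library. Means of these last genes were at most 0.571 FPKM with cisplatin, 0.165 FPKM with vehicle and 0.774 FPKM with the combination. They reached the level needed for a test only through brivanib, and in the other groups lay near the floor of the scale. None of the 66 changed direction under any alternative. The share of calls higher in cisplatin was 37.5% on the deposited scale, 27.5% of 247 calls after median-of-ratios scaling and 19.8% of 202 calls by voom on recovered fragments. The plot of differences against level shows how the calls spread.

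**Figure D1:**
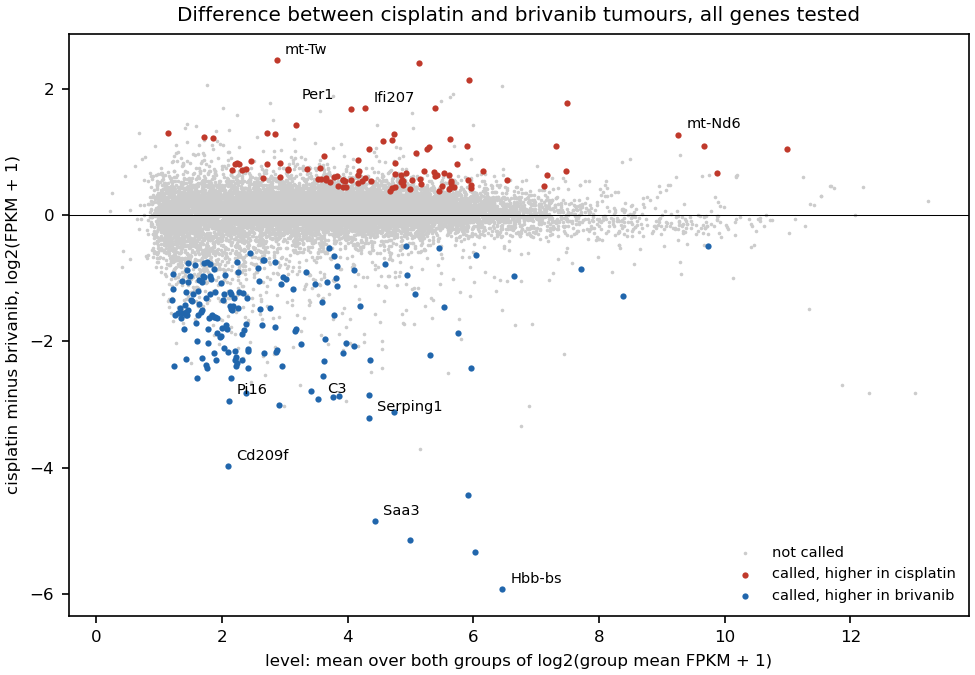
Each point is 1 of the 14246 genes tested, with its level on the x axis (log2 FPKM + 1, mean over both groups) and the cisplatin minus brivanib difference on the y axis (log2). The 168 blue points, higher in brivanib, reach -5.93 at Hbb-bs, while the 101 red points, higher in cisplatin, reach 2.45 at mt-Tw.

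**Figure D2:**
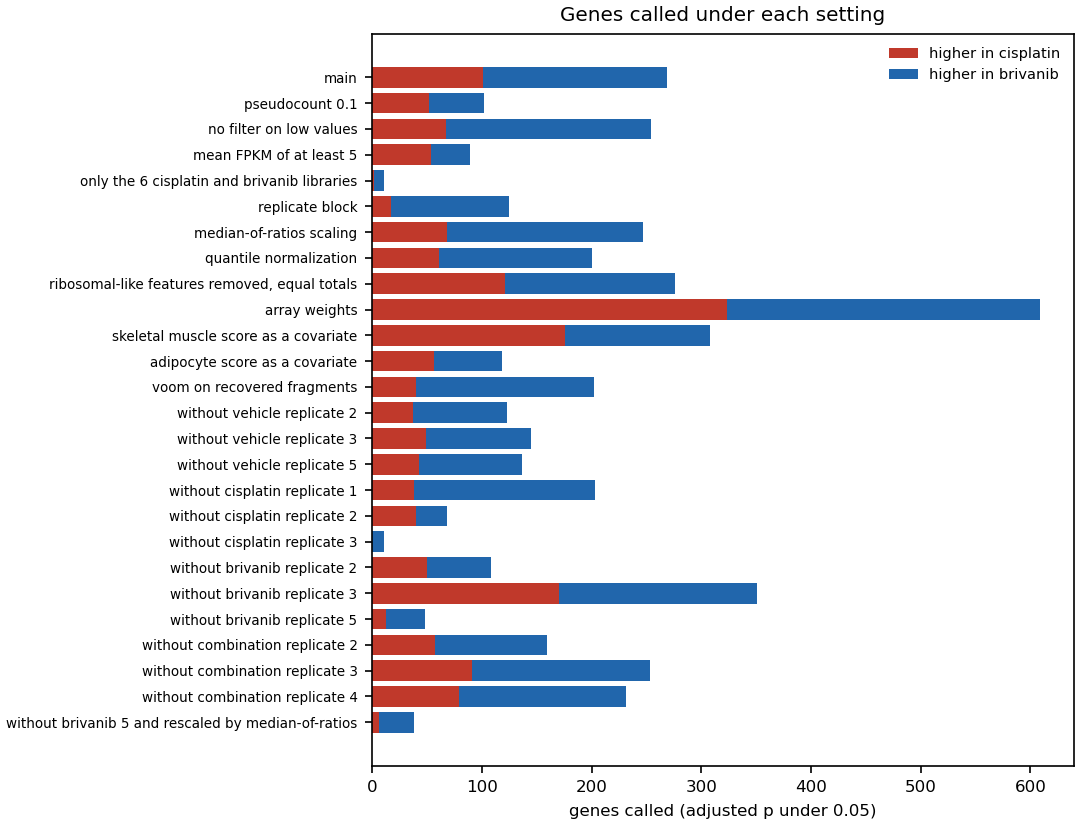
Genes called (x axis, count, adjusted p under 0.05) under each of 26 settings (y axis, the reported one on top as main), split into those higher in cisplatin (red) and in brivanib (blue). Counts run from 11 without cisplatin 3 or with only the 6 libraries to 609 with array weights.

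The largest difference of all genes tested was that of a red cell transcript, higher in brivanib tumours. Hbb-bs, which encodes an adult beta chain of haemoglobin (chromosome 7, 103826534 to 103828096, GRCm38, as all positions here), stood at 32.9, 6.46 and 0 FPKM in cisplatin 1, 2 and 3. In brivanib 2, 3 and 5 it stood at 1210, 259 and 180 FPKM. The groups did not overlap, and both varied widely within themselves. The difference was -5.93 ± 1.01 (standard error, SE, on the log2(FPKM + 1) scale, as are all differences below; adjusted p = 0.0207). The promoter of this gene is shown because it led the comparison; RefSeq gives it on the minus strand at chr7:103827879-103828178 (GRCm38.p6), and capitals mark a CCAAT box, a motif typical of globin promoters, whose first base lies 76 bases before the start.
Hbb-bs promoter: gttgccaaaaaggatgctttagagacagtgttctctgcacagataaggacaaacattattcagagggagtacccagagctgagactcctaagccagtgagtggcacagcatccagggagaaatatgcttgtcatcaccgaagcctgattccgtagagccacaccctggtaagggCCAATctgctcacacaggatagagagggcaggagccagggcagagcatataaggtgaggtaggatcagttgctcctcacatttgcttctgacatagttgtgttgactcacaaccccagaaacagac

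Of 6 erythroid markers tested, 5 were called higher in brivanib, against 1.18% of all genes tested, and the list's median was -4.79. Hba-a2, Hbb-bt and Hba-a1, the other adult globin genes, differed by -5.34, -5.15 and -4.43, with adjusted p of 0.0285, 0.019 and 0.02. How reads were divided between the near-identical globin copies is uncertain. Alas2, the enzyme for the opening step of haem synthesis in red cell precursors (chromosome X, 150547375 to 150570638), lay at 0.168 to 1.49 FPKM with cisplatin and 2.63 to 11.9 FPKM with brivanib (-2.03 ± 0.42, adjusted p = 0.0372). Vehicle tumours had Hbb-bs at 655 to 1240 FPKM, and the gene was listed at 0 in all 3 combination libraries. In these genes the brivanib tumours thus lay on the side of the vehicle tumours, and the cisplatin tumours on the side of the combination. Without cisplatin 3 none of the 5 erythroid calls was made, without cisplatin 2 there was 1, and without brivanib 2 there were 2. The Hbb-bs adjusted p was then 0.0547, 0.0578 and 0.0516, and the list's median ran from -5.57 to -3.97 over the removals of a cisplatin or brivanib library.

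The smallest adjusted p belonged to Cd209f, a C-type lectin gene of the CD209 family, whose members bind sugars on microbes and are known from resident macrophages and dendritic cells (chromosome 8, 4102787 to 4105835). Its level was 0.223, 0 and 0 FPKM in cisplatin 1, 2 and 3, which came from 7, 0 and 0 fragments. In brivanib 2, 3 and 5 it was 16.6, 13.3 and 18.3 FPKM, from 466, 378 and 482 fragments. The gene was thus close to undetected in all cisplatin tumours and present at a like level in all brivanib tumours (-3.98 ± 0.22, adjusted p = 7.81e-06). Vehicle and combination tumours had 0 to 0.277 and 0 to 0.624 FPKM. The gene thus reached the level needed for a test only through the brivanib tumours. Its neighbour Cd209g, chosen for mention after its values were seen, lay at 0 to 0.0546 FPKM with cisplatin and 2.89 to 5.87 FPKM with brivanib (-2.39 ± 0.22, adjusted p = 0.0011). The remaining 5 of 7 CD209 lectins were too low to be tested; of these Cd209d had 0 to 0.406 FPKM with cisplatin and 0.806 to 1.95 FPKM with brivanib.

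Of 36 fibroblast and matrix genes, all tested, 10 were called higher in brivanib, 0 in cisplatin and 26 were not called. The brivanib values lay wholly above the cisplatin values in 26 (6.84% of all genes tested), and the median was -1.15. Pi16, a peptidase inhibitor gene that marks adventitial fibroblasts (chromosome 17, 29318877 to 29329413), had 1.22, 0.378 and 0.116 FPKM in cisplatin 1, 2 and 3 and 13.4, 7.49 and 11.7 FPKM in brivanib 2, 3 and 5. Its groups were well apart, and the difference of -2.94 ± 0.29 (adjusted p = 0.00132) was called in each alternative that tested it. Pi16 means were 0.165 FPKM with vehicle and 0.449 FPKM with the combination, so it too reached the level needed for a test only through brivanib. Fbln1, which encodes the matrix protein fibulin 1 (chromosome 15, 85205949 to 85286535), had 1.75, 0.281 and 0.211 FPKM with cisplatin and 9.66, 6.07 and 5.56 FPKM with brivanib (-2.29 ± 0.32, adjusted p = 0.0112). Fbln1 means were 0.11 FPKM with vehicle and 0.47 FPKM with the combination, so the same limit holds for it as for Pi16. Loxl1, an enzyme that cross-links elastin, and Tnxb, the matrix protein tenascin X, differed by -2.40 ± 0.39 and -1.26 ± 0.18. Sparc, a collagen-binding protein, was abundant in both groups, at 179 to 260 FPKM with cisplatin and 420 to 619 FPKM with brivanib (-1.28 ± 0.24, adjusted p = 0.0285). The other calls in the list were Dcn, Bgn, Fbn1, Pdgfrb and Col5a2. Cisplatin 1 had the highest mean level of the list among cisplatin tumours, 4.83 on the log2 scale against 3.93 and 4.11 in cisplatin 2 and 3, and 5.51 to 5.69 with brivanib. Calls in the list numbered 17 without cisplatin 1 and 1 without cisplatin 3, 3 without cisplatin 2 or brivanib 5, 4 without brivanib 2 and 5 without vehicle 2; the median stayed between -1.31 and -0.99 without any cisplatin or brivanib library.

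Of 44 collagen chain genes, a list drawn up after values were seen, 18 were tested and 4 were higher in brivanib (Col5a2, Col5a3, Col12a1 and Col14a1), with a median of -0.80. Col14a1, a fibril-associated collagen, had 1.69, 0.458 and 0.381 FPKM with cisplatin and 8.58, 11.4 and 8.98 FPKM with brivanib. Col1a1, the main chain of collagen I (chromosome 11, 94936224 to 94953042), had 75.6, 18.1 and 15.7 FPKM in the cisplatin libraries and 482, 227 and 233 FPKM in the brivanib libraries. These values do not overlap, yet the difference of -3.35 ± 0.84 missed the threshold (adjusted p = 0.0681), and so did that of Col1a2 (-3.02 ± 0.80, adjusted p = 0.084). Vehicle tumours were spread from 2.63 to 30.1 FPKM for Col1a1 and combination tumours from 8.94 to 50.8 FPKM. The error pools the spread of all 4 groups, cisplatin included, and the part of each was not tested. Col3a1 had 261 to 580 FPKM with cisplatin and 738 to 930 FPKM with brivanib (-0.94 ± 0.38, adjusted p = 0.236). There were 7 collagen calls without cisplatin 1, 6 without combination 3, 2 without vehicle 2 or combination 2 and 1 without cisplatin 2, cisplatin 3, brivanib 2 or brivanib 5.

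Of 11 pericyte and smooth muscle markers tested 4 were called, all higher in brivanib (1.18% of all genes tested), 7 were not called, and the median was -1.06. Acta2, smooth muscle actin (chromosome 19, 34241090 to 34255336), had 10.9, 5.27 and 2.98 FPKM in cisplatin 1, 2 and 3 and 34.0, 36.1 and 20.5 FPKM in brivanib 2, 3 and 5 (-2.19 ± 0.42, adjusted p = 0.0301). Tagln, an actin-binding protein of smooth muscle, differed by -1.97 ± 0.36 (adjusted p = 0.0253). Rgs5, a pericyte regulator of G protein signalling, had 7.01 to 8.63 FPKM with cisplatin and 14.1 to 22.4 FPKM with brivanib (-1.06 ± 0.21, adjusted p = 0.0309). For Rgs5 the vehicle tumours, at 14.4 to 18.8 FPKM, lay with the brivanib tumours, whereas for Acta2, at 3 to 7.40 FPKM, they lay with the cisplatin tumours. Ndufa4l2, a mitochondrial protein found in pericytes and under low oxygen, differed by -2.14 ± 0.49 (adjusted p = 0.0482). None of these 4 calls was made without cisplatin 2, cisplatin 3, brivanib 2 or brivanib 5, and 2 were made without cisplatin 1, brivanib 3 or vehicle 2.

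Of 20 complement genes tested 4 were called, all higher in brivanib (1.18% of all genes tested), 16 were not called, and the median was -0.86. C3, the central complement component (chromosome 17, 57203970 to 57228136), had 7.71, 2.52 and 0.73 FPKM in cisplatin 1, 2 and 3 and 33.8, 27.4 and 22.3 FPKM in brivanib 2, 3 and 5. The brivanib tumours lay within a narrow range and the cisplatin tumours did not, with cisplatin 1 the highest (-2.92 ± 0.48, adjusted p = 0.0207). Serping1, the C1 inhibitor, had 15.4, 3.17 and 1.48 FPKM with cisplatin and 74.1, 38.9 and 43.7 FPKM with brivanib (-3.21 ± 0.54, adjusted p = 0.0207). C4b, a component of the classical pathway, and Cfb, complement factor B of the alternative pathway, differed by -3.01 ± 0.53 and -2.32 ± 0.39. All 4 complement calls were lost without cisplatin 2, cisplatin 3, brivanib 2 or brivanib 5, with adjusted p for C3 of 0.0578, 0.0659, 0.0508 and 0.0501.

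Of 11 acute phase genes tested 5 were higher in brivanib and 1 in cisplatin, with a median of -1.34. Saa3, a serum amyloid made in inflamed tissue (chromosome 7, 46711998 to 46715700), had 9.23, 1.25 and 0 FPKM in cisplatin 1, 2 and 3 and 162, 27.3 and 120 FPKM in brivanib 2, 3 and 5 (-4.85 ± 0.84, adjusted p = 0.0207). Vehicle tumours had no more than 0.704 FPKM of Saa3. Lbp, which binds bacterial lipopolysaccharide, had 0.135 to 1.23 FPKM with cisplatin and 5.37 to 7.62 FPKM with brivanib (-2.38 ± 0.27, adjusted p = 0.00269), and it was called without any 1 of the 12 libraries. Lbp means were 0.0312 FPKM with vehicle and 0.774 FPKM with the combination, so it reached the level needed for a test only through brivanib. Serpina3n, a protease inhibitor, differed by -2.79 ± 0.56, Steap4, a metalloreductase, by -1.34 ± 0.21, and Rarres2, which encodes the chemoattractant chemerin, by -3.12 ± 0.71. Cp, the copper-carrying ferroxidase ceruloplasmin, went the other way, with 38.2, 25.6 and 52.5 FPKM in the cisplatin libraries and 13.4, 14.7 and 19.9 FPKM in the brivanib libraries (1.19 ± 0.25, adjusted p = 0.0383). The 5 calls toward brivanib became 1 without cisplatin 2 or 3, 2 without brivanib 2 or 5 and 3 without any vehicle library. The Cp call was lost without each of these libraries apart from cisplatin 2, and also without cisplatin 1 or brivanib 3.

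Among 24 chemokine genes tested, Cxcl14 and Ccl11 were higher in brivanib and 0 in cisplatin, with a median of -0.52. Cxcl14, a chemokine of skin and fibroblasts, had 12.0, 1.2 and 1.49 FPKM with cisplatin and 36.4, 21.8 and 32.4 FPKM with brivanib (-2.88 ± 0.61, adjusted p = 0.0388). Ccl11, which attracts eosinophils, had 0.945 to 3.45 and 7.61 to 9.19 FPKM (-1.83 ± 0.35, adjusted p = 0.0285). No chemokine was called without cisplatin 2, cisplatin 3, brivanib 2 or brivanib 5, 1 was without any vehicle library or combination 2, and 4 were called without brivanib 3 or combination 3. Of 18 keratinocyte and hair markers 16 fell below the level for testing. Of the others, Sbsn had 0.652 to 2.30 FPKM with cisplatin and 1.74 to 5.33 FPKM with brivanib (adjusted p = 0.156), and Sprr1a had 1.68 to 2.55 and 3.33 to 7.06 FPKM (adjusted p = 0.158). The part of skin or other host tissue in these differences was not tested.

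Of 29 macrophage markers tested, Marco and Fcgr3 were called higher in brivanib and Gpnmb in cisplatin. The brivanib values of 19 lay wholly above the cisplatin values, against 6.84% of all genes tested, and the median was -0.95. Marco, a scavenger receptor (chromosome 1, 120474538 to 120505024), had 2.33, 0.0445 and 0 FPKM with cisplatin and 9.71, 2.95 and 6.68 FPKM with brivanib (-2.18 ± 0.49, adjusted p = 0.0475). Marco means were 0.186 FPKM with vehicle and 0.597 FPKM with the combination, so it reached the level needed for a test only through brivanib. Fcgr3, a receptor for antibody, had 17.6 to 23.7 FPKM with cisplatin and 36.6 to 52.1 FPKM with brivanib (-0.95 ± 0.22, adjusted p = 0.0493). F13a1, the coagulation factor XIII chain made by resident macrophages, was chosen for mention after its values were seen and had 9.10 to 33.2 and 58.6 to 97.5 FPKM (-2.22 ± 0.41, adjusted p = 0.0269). Gpnmb, a membrane glycoprotein of lipid-laden macrophages that tumour cells can also make, was higher in cisplatin, at 205, 212 and 259 FPKM against 170, 75.9 and 89.8 FPKM (1.09 ± 0.24, adjusted p = 0.0447), a call lost under 10 of 12 removals. The macrophage calls toward brivanib numbered 5 without cisplatin 1, 1 without vehicle 3, brivanib 2, brivanib 3 or combination 3, and 0 without vehicle 2, vehicle 5, cisplatin 2, cisplatin 3, brivanib 5 or combination 2.

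Of 8 mast cell markers tested 4 were called, all proteases at low levels and higher in brivanib, and the median was -1.16. Tpsb2, a tryptase (chromosome 17, 25366550 to 25368094), had 1.90, 0.476 and 0.676 FPKM in cisplatin 1, 2 and 3 and 9.08, 6.54 and 4.36 FPKM in brivanib 2, 3 and 5 (-1.94 ± 0.32, adjusted p = 0.0207). The chymases Cma1 and Mcpt4 and the carboxypeptidase Cpa3 differed by -2.10, -1.87 and -1.62 (adjusted p = 0.0381, 0.0495 and 0.0386). Means of the 4 called genes were at most 1.19 FPKM with vehicle, 1.11 FPKM with cisplatin and 0.81 FPKM with the combination. All 4 reached the level needed for a test only through brivanib, so their number is no separate support. None of the 4 was called without cisplatin 2, cisplatin 3 or brivanib 2, and 1 to 3 were without any other 1 library. Of 11 MHC class II presentation genes tested 1 was called, H2-Ab1, a class II beta chain, with 3.20 to 10.1 FPKM with cisplatin and 19.8 to 41.0 FPKM with brivanib (-2.07 ± 0.47, adjusted p = 0.0494). Its call was lost under 10 of the 12 removals of a library, all but those of combination 3 and 4. The list's median was -0.78. Padi4, an enzyme of neutrophil nuclei, was the only call among 11 neutrophil markers tested (-1.50 ± 0.30, adjusted p = 0.0341), and it was lost without any vehicle library, cisplatin 2 or 3, brivanib 2 or 5, or combination 2. Padi4 means were 0.149 FPKM with vehicle, 0.632 FPKM with cisplatin and 0.613 FPKM with the combination. It too reached the level needed for a test only through brivanib.

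**Figure D3:**
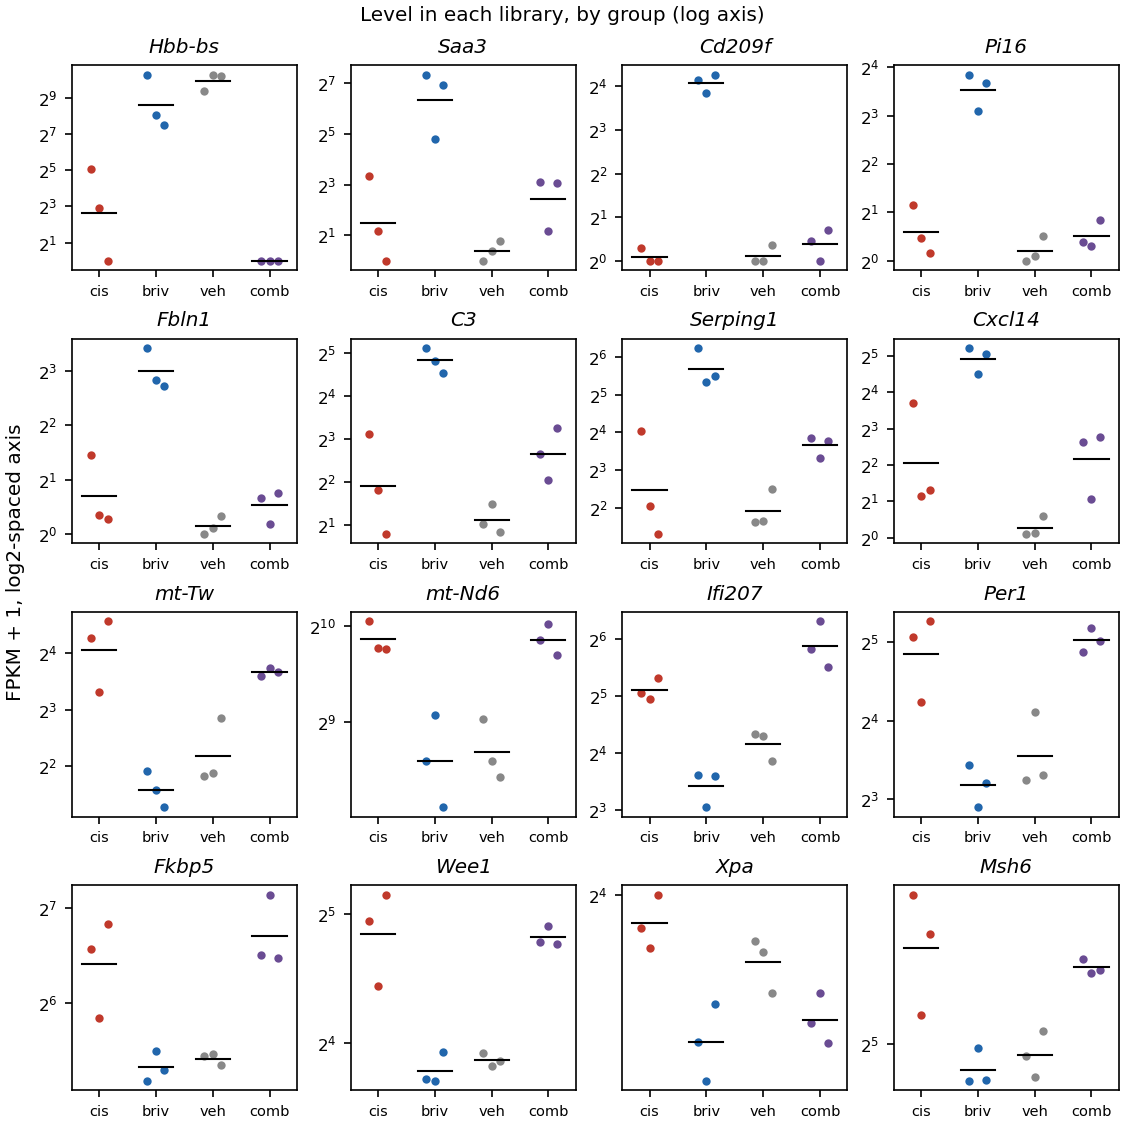
Level of 16 genes in each library (FPKM + 1, log axis), with 3 points per group and a bar at the group mean of the log values; cis, cisplatin; briv, brivanib; veh, vehicle; comb, combination. Cisplatin and brivanib points do not overlap in any panel, and Cd209f lies at 13.3 to 18.3 FPKM with brivanib and at most 0.223 FPKM with cisplatin.

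The largest difference toward cisplatin was that of a mitochondrial transcript, mt-Tw. All 22 mitochondrial transfer RNA genes, a list drawn up after values were seen, had positive differences with a median of 1.29, and 7 were called. Of the 13 protein genes of the mitochondrial genome 3 were called, all 13 had positive differences and the median was 0.60. Transfer RNAs bring amino acids to the ribosome, and the organelle uses its own set, cut out of long transcripts of both strands. The 4 with the largest differences are printed from GENCODE M21 (GRCm38), with the anticodon, which reads the codon, in capitals.
mt-Tw, tryptophan: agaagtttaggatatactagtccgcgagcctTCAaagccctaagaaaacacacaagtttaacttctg
mt-Ta, alanine: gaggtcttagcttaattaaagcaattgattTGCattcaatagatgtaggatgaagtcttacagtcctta
mt-Tn, asparagine: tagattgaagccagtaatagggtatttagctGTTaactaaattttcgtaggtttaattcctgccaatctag
mt-Tl1, leucine: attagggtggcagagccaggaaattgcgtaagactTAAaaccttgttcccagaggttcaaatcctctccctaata
The genes mt-Tw (mitochondrial genome, 4950 to 5016), mt-Ta (5018 to 5086, minus strand), mt-Tn (5089 to 5159, minus strand), mt-Tc (5192 to 5257, minus strand) and mt-Ty (5260 to 5326, minus strand) are neighbours, and all were called. Those printed are 67 to 75 bases long, less than a usual sequencing fragment. Their FPKM values are therefore uncertain as levels, and since no strand setting is stated, reads of the 2 strands cannot be told apart.

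The most different transfer RNA, mt-Tw, rested on few fragments. It had 18.1, 8.95 and 22.5 FPKM in cisplatin 1, 2 and 3 from 26, 14 and 31 fragments. In brivanib 2, 3 and 5 it had 2.76, 2 and 1.42 FPKM from 4, 3 and 2 fragments (2.45 ± 0.33, adjusted p = 0.00871). The groups did not overlap, and cisplatin 2 was the lowest of its group, as it was for mt-Ta, mt-Tn, mt-Tl1, mt-Tc and mt-Ty. A more abundant one, mt-Tl1 (2676 to 2750), had 416, 208 and 390 FPKM with cisplatin and 83.9, 120 and 81.8 FPKM with brivanib (1.77 ± 0.26, adjusted p = 0.014). The differences of mt-Ta, mt-Tn, mt-Tc, mt-Tk and mt-Ty were 2.40, 2.13, 1.70, 1.30 and 1.28. In mt-Ta brivanib 5 was lowest, at 4.83 FPKM against 17.4 and 22.7 FPKM in brivanib 2 and 3. Without brivanib 5 there were 5 calls in this list and the median was 0.99; there were 11 calls without brivanib 3, 4 without cisplatin 1 and 0 without cisplatin 3, when the adjusted p of mt-Tw was 0.0521.

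Of the protein genes, mt-Nd6, mt-Nd5 and mt-Nd1 were called; all encode subunits of complex I, which passes electrons from NADH into the respiratory chain. The level of mt-Nd6, which is read from the other strand than the remaining protein genes (13552 to 14070), was 1060, 876 and 869 FPKM with cisplatin and 386, 537 and 275 FPKM with brivanib (1.27 ± 0.22, adjusted p = 0.023). For mt-Nd5 (11742 to 13565) the levels were 1260, 1060 and 1210 against 494, 726 and 465 FPKM (1.09 ± 0.19, adjusted p = 0.0217), and the difference of mt-Nd1 was 1.04 ± 0.22 (adjusted p = 0.0379). The ends of mt-Nd5 and mt-Nd6 overlap. In 12 of the 13 genes the cisplatin values lay wholly above the brivanib values, against 13.7% of all genes tested. The exception was mt-Cytb of complex III, at 2740 to 3130 FPKM with cisplatin and 1140 to 2830 FPKM with brivanib. Mean levels of the 13 genes were 10.8 to 10.9 on the log2 scale with cisplatin, 9.83, 10.6 and 10.3 in brivanib 2, 3 and 5, 10.2 to 10.5 with vehicle and 10.8 to 11.2 with the combination. Calls in this list numbered 6 without brivanib 3, 1 without cisplatin 1 or brivanib 2, 2 without any vehicle library or combination 2 and 0 without cisplatin 2, cisplatin 3 or brivanib 5; copies of mitochondrial sequence in the nuclear genome add uncertainty to how reads were placed.

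**Figure D4:**
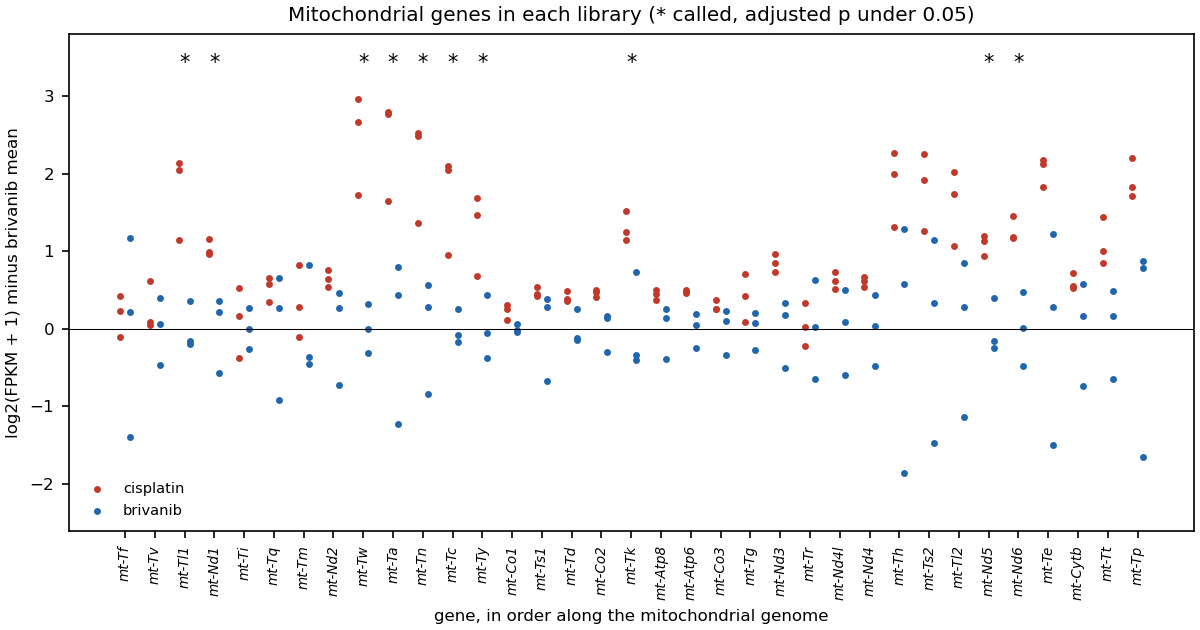
The 13 protein and 22 transfer RNA genes in their order along the mitochondrial genome (x axis), with log2(FPKM + 1) of each cisplatin (red) and brivanib (blue) library minus the brivanib mean of the gene (y axis). Stars mark the 10 genes called, among them the neighbours mt-Tw, mt-Ta, mt-Tn, mt-Tc and mt-Ty.

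Clock and glucocorticoid-induced genes included 3 calls, all higher in cisplatin. Per1, a repressor of the circadian clock that glucocorticoids also induce (chromosome 11, 69095217 to 69109960), had 32.4, 17.8 and 37.4 FPKM in cisplatin 1, 2 and 3 and 9.79, 6.44 and 8.27 FPKM in brivanib 2, 3 and 5 (1.67 ± 0.28, adjusted p = 0.0207). Per2, its partner, had 5.01, 4.66 and 5.52 FPKM with cisplatin and 2.24, 2.19 and 3.10 FPKM with brivanib (0.80 ± 0.15, adjusted p = 0.0285). In both genes the groups were apart, and the combination tumours lay with the cisplatin tumours. Fkbp5, a chaperone of the glucocorticoid receptor (chromosome 17, 28399095 to 28517524), had 93.8, 56.4 and 113 FPKM with cisplatin and 35.3, 44.1 and 38.3 FPKM with brivanib (1.09 ± 0.23, adjusted p = 0.0394). The sources used here do not give the hour of sampling, and its part was not tested. RefSeq lists 2 start sites for Per1, both on the plus strand, and their promoters are shown because Per1 is a known target of clock factors that bind the E-box CACGTG. The upstream promoter (chr11:69098699-69098998) holds the motif, in capitals, 166 bases before its start, and the downstream one (chr11:69099902-69100201) does not.
Per1 promoter, upstream: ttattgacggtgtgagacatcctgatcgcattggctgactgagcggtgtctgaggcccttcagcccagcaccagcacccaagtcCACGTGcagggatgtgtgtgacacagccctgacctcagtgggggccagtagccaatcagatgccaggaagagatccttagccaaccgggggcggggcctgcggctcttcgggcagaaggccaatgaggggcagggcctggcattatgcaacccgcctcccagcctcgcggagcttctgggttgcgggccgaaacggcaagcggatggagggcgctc
Per1 promoter, downstream: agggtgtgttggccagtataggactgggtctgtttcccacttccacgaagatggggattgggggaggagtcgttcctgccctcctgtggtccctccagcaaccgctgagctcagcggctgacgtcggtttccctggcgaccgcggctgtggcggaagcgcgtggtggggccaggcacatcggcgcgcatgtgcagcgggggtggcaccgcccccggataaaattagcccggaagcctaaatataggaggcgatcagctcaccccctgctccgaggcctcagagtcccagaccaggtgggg
Most genes of these lists were not called: 2 of 15 clock genes tested were called with a median of 0.24, and 2 of 14 glucocorticoid-induced genes with a median of 0.06. Over all genes tested, 0.709% were called higher in cisplatin. Per1 lost its call without cisplatin 3 (adjusted p = 0.105) or brivanib 5 (0.0535). Per2 lost it without any 1 of the 3 cisplatin libraries or brivanib 2 (adjusted p up to 0.151), and Fkbp5 under 8 of the 12 removals (adjusted p up to 0.176).

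Among genes that sense nucleic acids, Ifi207 stood out. This member of the interferon-inducible p200 family, whose proteins bind DNA (chromosome 1, 173723427 to 173741747), had 32.3, 30.0 and 38.9 FPKM in cisplatin 1, 2 and 3 and 11.3, 7.28 and 11.1 FPKM in brivanib 2, 3 and 5 (1.69 ± 0.22, adjusted p = 0.00768). Vehicle tumours lay between the groups, at 13.5 to 19.1 FPKM, and combination tumours above both, at 44.6 to 78.0 FPKM. Rela, the p65 subunit of NF-kappaB, had 32.8 to 37.7 FPKM with cisplatin and 25.1 to 29.7 FPKM with brivanib (0.41 ± 0.09, adjusted p = 0.0475). These were the only calls among 20 cGAS-STING pathway genes tested, whose median was 0.03. Tmem173, which encodes STING, had 20 to 22.1 and 19.7 to 24.7 FPKM, with a difference of -0.06 (95% interval -0.31 to 0.19; adjusted p = 0.837). Cgas itself was below the level for testing, at 0.127 to 0.385 FPKM with cisplatin and 0.423 to 0.912 FPKM with brivanib. Ifi207 lost its call only without cisplatin 3 (adjusted p = 0.0521) among the removals of 1 library, and Rela lost it in all of them but the removal of brivanib 2.

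Interferon response genes gave a single call. Of 38 type I interferon response genes tested 1 was called, higher in brivanib, against 1.18% of all genes tested. This was Ifi27l2a, a small interferon-induced protein, with 25.1, 25.1 and 29.1 FPKM with cisplatin against 82.1, 96.6 and 52.0 FPKM with brivanib (-1.46 ± 0.23, adjusted p = 0.0191). It lost the call without cisplatin 2 or 3 (adjusted p = 0.0554 and 0.067). The list's median was -0.24. None of 26 interferon-gamma response genes tested was called (median 0.18), and Socs1, an inhibitor of cytokine signalling, came nearest with 6.21 to 8.68 FPKM against 4.48 to 5.06 FPKM (0.58 ± 0.15, adjusted p = 0.073). None of 19 MHC class I presentation genes was called either (median 0.17). The peptide transporter genes Tap2 and Tap1 had 21.7 to 26.4 against 13 to 17 FPKM and 26.8 to 29.9 against 12.7 to 21.9 FPKM, with adjusted p of 0.0673 and 0.101. Casp4, an inflammatory caspase that senses lipopolysaccharide, was chosen for mention after its values were seen and was higher in cisplatin, at 52.1 to 56.1 FPKM against 24.0 to 27.1 FPKM (1.04 ± 0.15, adjusted p = 0.0127).

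Cell cycle and DNA repair genes gave few calls. Wee1, a kinase that keeps the mitotic cyclin-dependent kinase inactive (chromosome 7, 110122046 to 110143286), was higher in cisplatin, with 29.8, 20.7 and 34.4 FPKM in cisplatin 1, 2 and 3 and 12.2, 12.1 and 14.3 FPKM in brivanib 2, 3 and 5 (1.05 ± 0.15, adjusted p = 0.0137). Brivanib and vehicle tumours overlapped for Wee1, and cisplatin and combination tumours lay above both. It was the only call among 13 G2 checkpoint genes tested (median 0.26), and of the 12 libraries only the removal of cisplatin 3 ended it (adjusted p = 0.0547). Of 34 crosslink and break repair genes 2 were called, both higher in cisplatin, against 0.709% of all genes tested. Msh6, of the mismatch recognition complex, had 56.4, 34.8 and 48.3 against 26.7, 30.5 and 26.8 FPKM (0.69 ± 0.15, adjusted p = 0.0414). Xpa, which verifies damage in nucleotide excision repair, had 13.3, 12.4 and 15 against 8.75, 7.57 and 10.1 FPKM (0.57 ± 0.13, adjusted p = 0.0473). For Xpa the vehicle tumours had 10.5 to 12.7 FPKM and the combination tumours 8.73 to 10.5 FPKM, whereas for Msh6 they had 27.1 to 32.7 and 41.3 to 43.7 FPKM. The Xpa call was lost under each removal of 1 library (adjusted p up to 0.209), and that of Msh6 under 10 of 12 (up to 0.179).

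Of 30 proliferation and mitosis genes 1 was called, higher in cisplatin (0.709% of all genes tested). In 11 the cisplatin values lay wholly above the brivanib values, against 13.7% of all genes tested, and 19 overlapped between the groups. Positive values were found for 29, as for 61.1% of all genes tested, and the median was 0.25. The call was Pbk, a mitotic kinase, at 69.5 to 74.9 FPKM with cisplatin and 42.0 to 54.1 FPKM with brivanib (0.55 ± 0.12, adjusted p = 0.0414). Its call was lost under 10 of 12 removals, and 4 genes of the list were called without brivanib 3. Of 31 DNA replication genes none was called, 30 had positive values and the median was 0.26. The cisplatin values lay wholly above the brivanib values in 12 of them, and 19 overlapped. Rfc4, a clamp loader subunit, had 41.0 to 44.3 against 26.9 to 38.4 FPKM (adjusted p = 0.0975). Mki67, the proliferation marker, had 41.4 to 46.5 and 30.1 to 48.2 FPKM (0.11 ± 0.16, adjusted p = 0.755). With the skeletal muscle score as a covariate 9 proliferation genes were called higher in cisplatin.

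No p53 target gene was called among 27 tested (median 0.16). The cisplatin values lay wholly above the brivanib values in 3, against 13.7% of all genes tested, and 24 overlapped. Zmat3 came nearest to a call, with 8.42 to 8.88 FPKM with cisplatin and 5.58 to 6.60 FPKM with brivanib (0.44 ± 0.12, adjusted p = 0.0873). Sesn2 had 12.3 to 15.3 and 7.14 to 12.7 FPKM (0.52 ± 0.19, adjusted p = 0.185). Cdkn1a, the p53-induced inhibitor of cyclin-dependent kinases, had 37.7, 19.4 and 23.8 FPKM with cisplatin and 39.8, 15 and 32.9 FPKM with brivanib, a difference of -0.06 with a 95% interval of -0.79 to 0.68. Mdm2, the ligase that degrades p53, had 23 to 31.5 and 21.2 to 33.2 FPKM (0.09, interval -0.27 to 0.45). Both Cdkn1a and Mdm2 overlapped fully between the groups. Of 26 platinum uptake, efflux and detoxification genes tested none was called (median 0.17). Lrrc8d, part of an anion channel through which platinum drugs can enter cells, had 20.2, 23.4 and 12.2 against 8.94, 5.09 and 11.4 FPKM (1.06 ± 0.33, adjusted p = 0.14), and Slc31a1, a copper transporter, had 18.5 to 21.1 and 15.8 to 18.5 FPKM (0.16, interval -0.05 to 0.38). Lrrc8b, a related channel subunit, and Abcb1b, a drug efflux pump, had differences of 0.48 ± 0.12 and 0.47 ± 0.13 (adjusted p = 0.0633 and 0.0901).

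The genes of the receptors that brivanib blocks gave no calls. None of 6 VEGF and FGF receptor and co-receptor genes tested was called (median 0.05). Kdr, which encodes VEGF receptor 2 (chromosome 5, 75932827 to 75978458), had 2.75, 4.18 and 3.75 FPKM with cisplatin and 4.00, 6.60 and 3.82 FPKM with brivanib, a difference of -0.33 with a 95% interval of -0.80 to 0.14 (adjusted p = 0.463). Fgfr1 had 121 to 175 and 108 to 133 FPKM (0.27, interval -0.07 to 0.60), and Flt1 had 3.94 to 5.38 and 4.18 to 8.36 FPKM (-0.32, interval -0.86 to 0.22). Flt4 and Fgfr2 lay below the level for testing, at no more than 1.16 and 0.15 FPKM in these 6 libraries. None of 19 endothelial markers was called, none had groups wholly apart, against 20.6% of all genes tested, and the median was -0.03. Eng, an endothelial co-receptor, had 50.4 to 52.8 and 34.8 to 57.8 FPKM (0.21, interval -0.12 to 0.54). Of 16 tip cell and sprouting genes 1 was called: Lama4, a laminin of vessel basement membranes, had 3.68 to 5.5 and 8.07 to 12.4 FPKM (-0.99 ± 0.21, adjusted p = 0.0388), with the call lost under 10 of 12 removals.

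Ligand and hypoxia genes gave no calls. Vegfa, the main VEGF ligand (chromosome 17, 46016993 to 46032369), had 15.1, 18.3 and 10.0 FPKM in cisplatin 1, 2 and 3 and 43.7, 13.4 and 30.6 FPKM in brivanib 2, 3 and 5, so the groups overlapped through brivanib 3 (-0.86 ± 0.34, adjusted p = 0.218). Pgf, placental growth factor, had 0.962 to 3.33 against 17.5, 1.56 and 5.74 FPKM (-1.29 ± 0.60, adjusted p = 0.291), and Angptl4 had 6.19 to 21.5 against 20.9 to 46.1 FPKM (adjusted p = 0.193). None of 11 ligand genes tested was called (median -0.48). Of 32 hypoxia response and glycolysis genes none was called, 31 had negative values, as did 38.9% of all genes tested, and the median was -0.57. Slc16a3, which exports lactate, had 6.44, 9.80 and 3.49 against 31.2, 11.5 and 26.8 FPKM (-1.65 ± 0.42, adjusted p = 0.0722), and Pfkl, a glycolytic kinase, had 15.8 to 24.7 against 81.4, 28.3 and 48.2 FPKM (adjusted p = 0.0987). Without brivanib 3, 15 of the 32 hypoxia genes and 1 of the 11 ligand genes were called, all higher in brivanib.

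Lymphocyte genes gave no calls. None of 11 T cell markers tested was called (median -0.08), with Cd3g at 0.192 to 0.829 and 0.791 to 2.18 FPKM (adjusted p = 0.355). None of 22 cytotoxic and NK cell genes was called. Of these 19 had positive values, against 61.1% of all genes tested, and the median was 0.43. The cisplatin values lay wholly above the brivanib values in 2, against 13.7% of all genes tested, and 20 overlapped. Klrb1c, an NK cell receptor, had 2.85, 2.48 and 5.59 FPKM with cisplatin and 1.16, 1.16 and 1.66 FPKM with brivanib (0.95 ± 0.26, adjusted p = 0.0975). Ifng lay below the level for testing, at 0.532 to 1.18 and 0.192 to 1.2 FPKM. Of 14 immune checkpoint genes tested none was called (median -0.06). Cd274, which encodes PD-L1, had 3.23 to 6.49 and 3.67 to 7.11 FPKM (-0.30, interval -0.87 to 0.26), and Tgfb1 had 33.1 to 44.4 and 38.3 to 39.7 FPKM (-0.04, interval -0.29 to 0.21). Of 10 dendritic cell markers tested none was called (median -0.13).

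**Figure D5:**
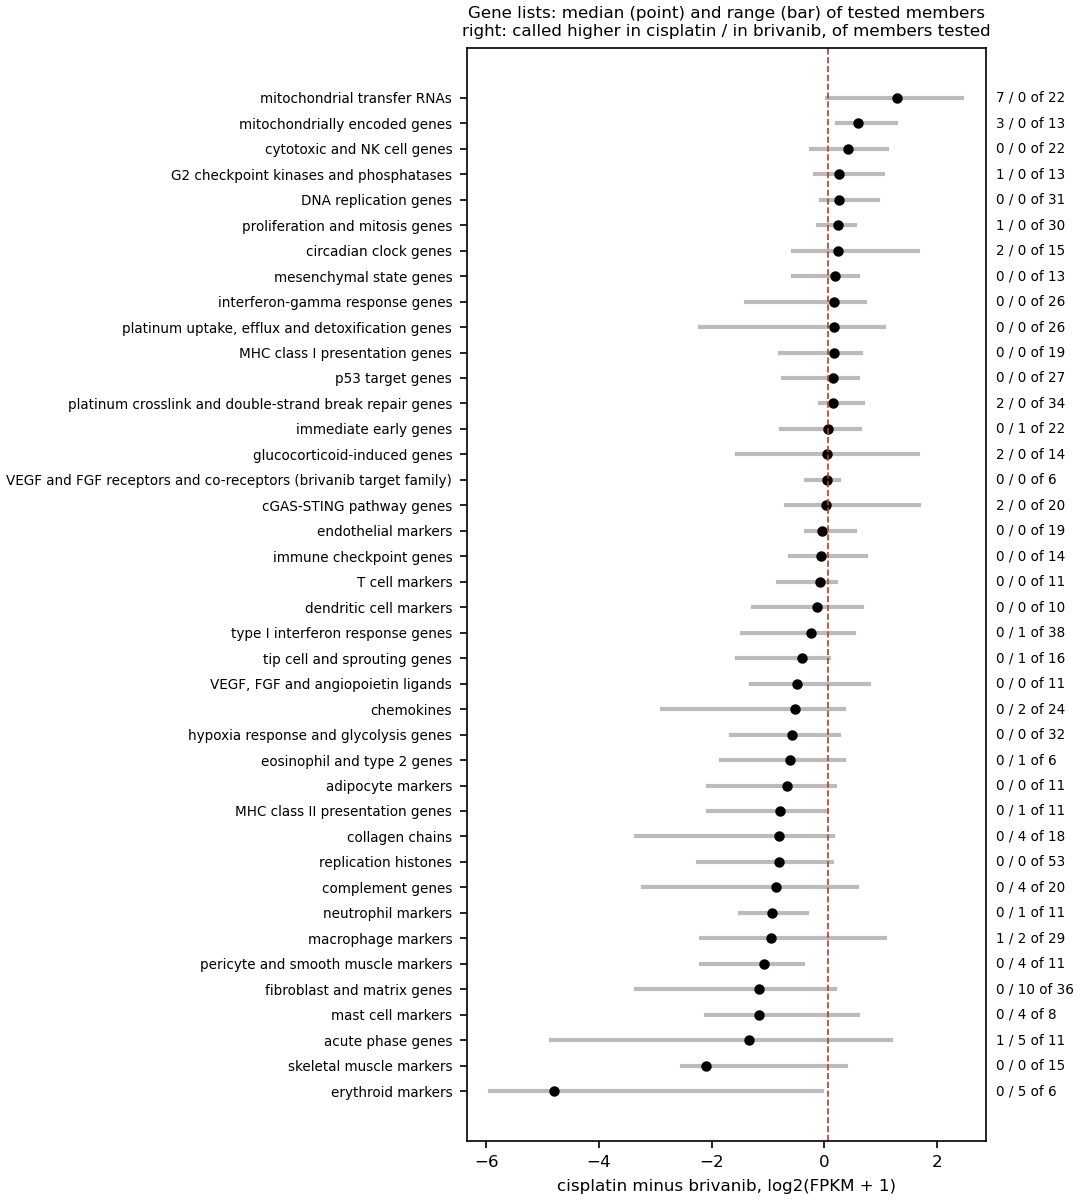
Median (point) and range (bar) of the cisplatin minus brivanib difference (x axis, log2) over the tested members of each gene list with at least 5 of them (y axis), with the counts called higher in cisplatin and in brivanib at the right; the dashed line is the median of all genes, 0.07. Medians run from -4.79 for erythroid markers to 1.29 for mitochondrial transfer RNAs.

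Other genes higher in cisplatin had varied roles. Zfp180, a zinc finger factor, had 10.4, 10.2 and 9.80 FPKM in cisplatin 1, 2 and 3 and 3.8, 2.37 and 4.87 FPKM in brivanib 2, 3 and 5 (1.28 ± 0.24, adjusted p = 0.0285). Akr1c14, an aldo-keto reductase of steroid metabolism, had 3.31 to 4.61 and 0.732 to 1.84 FPKM (1.24 ± 0.25, adjusted p = 0.0361). Ptgs1, the prostaglandin synthase COX-1, and Grem1, a secreted inhibitor of bone morphogenetic proteins, were chosen for mention after their values were seen. Ptgs1 had 62.7, 44.5 and 61.7 against 28.1, 27.9 and 22 FPKM (1.08 ± 0.15, adjusted p = 0.0104), and Grem1 had 64.9, 72.0 and 80.3 against 42.6, 19.8 and 34.3 FPKM (1.2 ± 0.22, adjusted p = 0.0253). Vehicle tumours lay with brivanib tumours for Ptgs1, at 26.7 to 29.6 FPKM, and between the groups for Grem1, at 43.1 to 55.8 FPKM. Casp4 and Ptgs1 lost their calls only without cisplatin 3 among the removals of 1 library, while Grem1 lost it also without cisplatin 2 or brivanib 5, Zfp180 without any cisplatin library or brivanib 2, and Akr1c14 under 7 of the 12. Egr2, an early response factor, was higher in brivanib, at 2.23 to 3.12 against 0.939 to 1.37 FPKM (-0.76 ± 0.17, adjusted p = 0.0425), and lost its call under 11 of 12. Ccdc80, a secreted matrix protein chosen after its values were seen, had 0.536 to 2.29 and 6.80 to 11.4 FPKM (-2.25 ± 0.29, adjusted p = 0.00784) and lost its call only without cisplatin 3.

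Muscle and fat genes differed among tumours of the same group. The mean log2(FPKM + 1) of 15 skeletal muscle markers tested, of 24, was 1.65, 0.49 and 1.41 in cisplatin 1, 2 and 3 and 0.51, 4.15 and 3.81 in brivanib 2, 3 and 5. Myl1, a fast fibre myosin light chain, was listed at 0 in cisplatin 2 and brivanib 2 and had 29.5 and 32.9 FPKM in brivanib 3 and 5; Pvalb, a calcium buffer of fast fibres, was listed at 0 in all cisplatin tumours and brivanib 2. The mean of 11 adipocyte markers tested, of 18, was 3.07, 1.64 and 1.85 with cisplatin and 2.24, 4.43 and 2.42 with brivanib, and none of their genes was called. Fabp4, a fatty acid carrier, had 21.3, 4.72 and 4.93 against 32.8, 97.1 and 13.6 FPKM (adjusted p = 0.22). These markers entered the fit as covariates: with the muscle score 308 genes were called and with the adipocyte score 118, of which 147 and 90 were among the 269. The part of muscle and fat tissue in the differences was not tested beyond these fits. Without brivanib 2, 8 of the 15 muscle markers were called higher in brivanib. That removal leaves only the brivanib libraries with high muscle levels, and the list's mean was 0.48 to 0.57 with vehicle. Pvalb and Myl1 reached the level needed for a test only through brivanib 3 and 5. The count of 8 is therefore no separate support for a difference between the groups.

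The untreated and doubly treated tumours place these differences. Of the 168 genes higher in brivanib, the vehicle mean lay nearer the cisplatin mean than the brivanib mean in 154 (91.7%), as did the combination mean in 159 (94.6%). Over all genes tested the shares were 46.2% and 64.3%. Of the 101 genes higher in cisplatin, the vehicle mean lay nearer the brivanib mean in 74 (73.3%), and the combination mean lay nearer the cisplatin mean in 95 (94.1%). For the globin genes, Alas2 and Rgs5 the vehicle mean lay nearer the brivanib mean. The genes counted were selected by the same cisplatin and brivanib values. Some, such as Cd209f, Cd209g, Pi16, Lbp, Fbln1, Marco, Padi4, Tpsb2, Cma1, Cpa3 and Mcpt4, reached the level needed for a test only through brivanib. In those genes the vehicle, cisplatin and combination means all lay low on the scale, at no more than 1.19 FPKM. The vehicle and combination libraries also entered the estimate of the spread. These counts are therefore a description, and their distance from the shares of all genes was not tested.

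Promoters of the called genes were searched for 4 motifs on either strand, in the 300 bases from 250 before to 50 after the start that RefSeq lists first for a gene. RefSeq promoters were matched by symbol for 103 of the 168 genes higher in brivanib, 60 of the 101 higher in cisplatin and 9510 of the genes tested. CCAAT was present in 29.1%, 38.3% and 39.3% of these, and in 37.9% of 27025 promoters of all genes. TTTGAA, the core of the CHR element of cell cycle genes, was present in 5.83%, 13.3% and 12.1%, and in 18.1% of all promoters. The E-box CACGTG was present in 11.7%, 10.0% and 10.3%, and in 7.24% of all promoters. The core of the interferon-stimulated response element was present in 5.83%, 3.33% and 3.15%, and in 3.49% of all promoters. Differences between these shares were not tested.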

How the data were processed

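RNA of 12 tumours was sequenced on a BGISEQ-500, per the labels' design text. The authors deposited FPKM values for each transcript, estimated with RSEM after Bowtie2 alignment to mm10, as that text states. Bowtie, HISAT, Bowtie2 2.2.5, RSEM 1.2.12 and the build mm9 stand in the submitters' processing notes. Of 135276 transcripts 134952 were found in GENCODE M21 on GRCm38, and 98.48% of these had identical coordinates. FPKM divides fragments by an estimated transcript length and a library total, so short RNAs and libraries rich in a few RNAs are affected most. The total used for brivanib 5 (21.021 M; M, 1e6) was below the fragments recovered there (30.943 M).

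FPKM values were summed to 53801 genes; 3 broken lines were dropped, and 1 column that matched no sample label was not used. Genes with a mean FPKM of at least 1 over the 12 libraries (14246) were compared on the log2(FPKM + 1) scale by limma (version 3.58.1, R 4.3.3), with 1 mean for each group, trend and moderated variances, two-sided, with Benjamini-Hochberg adjustment and a threshold of 0.05. All adjusted p-values in the text come from limma, which pools the spread of all 4 groups. FPKM times transcript length came out whole within 0.01 fragments for 100% of values up to 100 fragments, and voom was run on these fragments. The procedure was tested on simulated data. Alternatives were the pseudocount, filter, scaling, array weights, covariates, the samples in the fit, a replicate block and leaving out each library.

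Named genes are the 12 largest differences in each direction among called genes with groups apart, up to 5 called members of each gene list (or up to 2 where none was called), and a panel of 19 genes. Some of these are given only in counts. Members, lists and rules were chosen with earlier results of these data known, and genes or lists picked after their values were seen are marked. Promoter sequences come from RefSeq (GRCm38.p6).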

Additional observations from a re-analysis of the deposited data

How the results depend on the processing

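The counts of genes called, 269 in all with 101 higher in cisplatin and 168 in brivanib, moved with the processing. They were 102 (52 and 50) with a pseudocount of 0.1, 89 (54 and 35) with the filter raised to 5 FPKM, where fewer genes were tested, and 11 (2 and 9) with only the 6 cisplatin and brivanib libraries, where fewer samples estimate the spread. Array weights gave 609 (323 and 286) and the adipocyte score as a covariate 118 (56 and 62). The count higher in cisplatin was 67 with no filter on low values, 61 after quantile normalization, 176 with the muscle score and 40 by voom. Leaving out 1 library gave 11 to 351 genes, 0 to 170 higher in cisplatin and 11 to 181 higher in brivanib. Leaving out brivanib 5 together with median-of-ratios scaling, chosen after seeing the data, gave 38 (6 and 32). The cause of these shifts was not tested.

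Cisplatin and brivanib libraries share only the numbers 2 and 3. Same-numbered libraries of these groups correlated at 0.154 and 0.213 in their deviations from the group means, above the -0.157 to 0.1 of the other group pairs. Libraries of unlike number were not correlated, so these values cannot decide whether the numbers mark pairs. The main fit did not take them as pairs. With a replicate block 125 genes were called, 17 higher in cisplatin and 108 in brivanib, and 98 of them were among the 269.

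Of the 66 named genes that were called, 0 changed sign under the 25 alternatives, 3 (Cd209f, Cd209g and Pi16) were called in all that tested them, and 26 lost the call in 13 or more. Genes near 0 changed sign. Over the removals of 1 library Cdh1 ran from -0.16 (without brivanib 3) to 0.19 (brivanib 2), Tmem173 from -0.12 (brivanib 2) to 0.03 (brivanib 3), Cdkn1a from -0.46 (brivanib 3) to 0.21 (brivanib 2), Mdm2 from -0.03 (cisplatin 1) to 0.29 (brivanib 2), Tgfb1 from -0.15 (cisplatin 2) to 0.05 (cisplatin 1) and Mki67 from -0.09 (brivanib 2) to 0.24 (brivanib 5). Cdh1 was also at 0.05 after quantile normalization and 0.07 with array weights, Tmem173 at 0.04 with the adipocyte score and Mki67 at -0.03 with array weights. With the replicate block Mdm2 was at -0.08 and Tgfb1 at 0.04, with the muscle score Mdm2 was at -0.11, and without brivanib 5 and rescaled Cdkn1a was at 0.04 and Mdm2 at -0.06. Of 1172 list medians under alternatives 61 moved by more than the spread between libraries of a group. Low fragment numbers limit mt-Tw, mt-Tk and the CD209 lectins in cisplatin tumours. Cd209f, Cd209g, Pi16 and Lbp reached the level needed for a test only through brivanib. The same holds for Fbln1, Marco, Padi4, Tpsb2, Cma1, Cpa3 and Mcpt4, and for Pvalb and Myl1, which were not called.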
